A study of Homo sapiens with 18 samples.

Results

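Voltage-gated sodium and calcium channels open when the membrane depolarises, and let in the sodium that carries the action potential and the calcium that triggers transmitter release, contraction and gene expression. Each channel is built on a large pore-forming alpha subunit. Sodium channels carry single-span beta subunits, and calcium channels carry cytoplasmic beta subunits and extracellular alpha2delta subunits that set how many channels reach the membrane. The gamma family holds 1 subunit of the muscle calcium channel, and most of its relatives are better known as transmembrane regulators of AMPA-type glutamate receptors. Neuroblastoma arises from sympathetic precursors, a lineage whose mature neurons fire sodium action potentials and release noradrenaline through calcium entry. The genes described here are every row whose symbol begins with SCN and ends in A or B after its number, together with the CACNA1, CACNA2D, CACNB and CACNG families. This rule on names picked 40 of 39368 genes. They comprise 10 sodium pore genes, 4 sodium beta genes, 10 calcium pore genes, 4 alpha2delta genes, 4 calcium beta genes and 8 gamma genes.

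RNA was sequenced from BE2C and Kelly, established human neuroblastoma lines with an amplified MYCN oncogene. Each line carried shAhR-1, shAhR-2 or the control vector pLKO-GFP. Both short hairpin RNAs (shRNAs) are labelled as directed against AHR, the gene of the aryl hydrocarbon receptor, which regulates transcription once it binds a ligand, and the series title concerns its part in dedifferentiation. Each of the 6 groups, BE2C with shAhR-1, BE2C with shAhR-2, BE2C with pLKO-GFP and the same 3 in Kelly, held 3 libraries. Nothing in the labels tells separate cultures from repeats of 1 culture, so the p-values reflect variation among these libraries only, and that may be technical. The controls carry the lentiviral vector too, and no library without it was used here. Levels are counts scaled by library size (CPM) and are comparable between libraries for 1 gene, while levels of different genes are compared per kb of exon. Fold changes are log2 values ± SE of an shRNA over pLKO-GFP of the same line. A gene is called where its Benjamini-Hochberg adjusted p is below 0.05 in edgeR's quasi-likelihood test over all genes tested.

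Libraries held 32799682 to 45469353 counts. AHR itself was close to the floor of detection, with 8, 0 and 0 counts with shAhR-1 and 0, 0 and 0 counts with shAhR-2, against 4, 4 and 6 counts with pLKO-GFP, in BE2C. Kelly had 18, 11 and 22 AHR counts in the libraries labelled shAhR-1 and 0, 4 and 0 counts with shAhR-2, against 4, 26 and 29 counts with pLKO-GFP. The exact two-sided permutation p on CPM was 0.4 and 0.1 for shAhR-1 and shAhR-2 in BE2C and 0.8 and 0.2 in Kelly, where 0.1 is the smallest that 3 against 3 libraries allow. In edgeR's quasi-likelihood fit over all genes, AHR fell by 3.84 ± 0.81 with shAhR-2 in Kelly on the log2 scale (adjusted p = 3.41e-05), and the call held without any 1 of the 9 Kelly libraries. Without the second shAhR-2 library, which held all AHR counts of its group, the fitted value was -7.30 and is no bound. The libraries labelled shAhR-1 gave -0.10 ± 0.54 there (adjusted p = 0.889 in edgeR), and they lay within the range of their controls. In BE2C the filter on low counts removed AHR. Without that filter the edgeR fit called it lower with shAhR-2 (adjusted p = 0.0193), whose libraries had no AHR count, and not with shAhR-1 (-0.85 ± 1.43, adjusted p = 0.744 in edgeR). Mitochondrial genes held 24.3% to 24.9% of counts with shAhR-1 and 20.5% to 25.1% with shAhR-2 in BE2C, against 18.8% to 19.4% with pLKO-GFP. Their share in Kelly was 17.4% to 17.7% in the libraries labelled shAhR-1 and 15.2% to 15.8% with shAhR-2, against 14.5% to 15.6% with pLKO-GFP. The first shAhR-2 library of BE2C, which had the highest mitochondrial share, stood apart from its group, with a chi-square per degree of freedom of 22.5 and 24.6 against the other members of its group and of 2.85 to 6.90 for every other pair within a group. All 10 neuroblastoma markers were detected in each group, MYCN among them. Their summed level was 4174 to 4238 CPM with shAhR-1 and 2517 to 2527 CPM with shAhR-2 in BE2C, against 4953 to 5097 CPM with pLKO-GFP. In Kelly it was 5128 to 5249 CPM in the libraries labelled shAhR-1 and 5881 to 5981 CPM with shAhR-2, against 9863 to 10570.2 CPM with pLKO-GFP. Of these markers, 7 fell with shAhR-1 and 9 with shAhR-2 in BE2C, and 7 and 9 fell in Kelly, while 1 rose in each of the 4 comparisons. Of all genes tested, 27.1% fell with shAhR-1 and 37.2% with shAhR-2 in BE2C, and 31.0% and 38.2% fell in Kelly. Between 25.2% and 38.0% of all genes rose. The part of these marker changes in the channel results was not tested. The summed leukocyte markers stayed at or below 0.373 CPM and the summed muscle markers at or below 1.30 CPM in every library.

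More channel genes were called higher than lower with shAhR-2 in both lines and with shAhR-1 in BE2C, while the Kelly libraries labelled shAhR-1 showed about as many of each. With shAhR-2 in BE2C, 19 of the 30 channel genes that passed the filter on low counts were called higher, where 38.0% of all genes were called higher. Another 4 were called lower, where 37.2% of all genes were called lower. With shAhR-1 in BE2C, 13 of 30 rose, against 25.2% of all genes, and 1 fell, against 27.1%. Without the first or the second shAhR-1 library, 2 fell. In Kelly, shAhR-2 went with 19 of 28 called higher, against 37.2% of all genes, and 5 called lower, against 38.2%. In the Kelly libraries labelled shAhR-1, 9 of 28 were called higher, close to the 29.6% of all genes, and 8 lower, close to the 31.0% of all genes. The median log2 fold change of the channel genes tested was 0.48 with shAhR-1 and 1.27 with shAhR-2 in BE2C, and -0.02 in the libraries labelled shAhR-1 and 0.90 with shAhR-2 in Kelly. The medians over all genes tested lay between -0.01 and 0.03. The shAhR-1 and shAhR-2 comparisons of a line share their control libraries and are not independent.

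These counts rest in part on genes near the floor. Where a channel gene passed the filter only through the group where it is high, the filter favoured a call. The shares therefore describe the genes that passed and not all 40. In BE2C 8 of the 30 needed the shAhR-2 libraries to pass. Among them CACNA1A, CACNA1C, CACNA1I, CACNG7, CACNG8 and SCN11A were called higher with shAhR-2, while CACNB4, which needed the controls too, was not called. In Kelly 3 of the 28 needed them, CACNA1F and CACNA1H among them. SCN7A passed in Kelly only through the libraries labelled shAhR-1. With the genes limited to a mean of at least 1 CPM, 12 of 19 channel genes were called higher with shAhR-2 in BE2C, where 41.2% of all genes were, and 4 lower, where 41.2% were. In Kelly 16 of 23 were called higher with shAhR-2, where 5385 of 13169 genes were, and 4 lower, where 5454 were. That mean includes the shAhR-2 libraries, so the limit does not remove the selection. CACNA1G, below 1 CPM in every other BE2C library, passed it through them. Without the first shAhR-2 library of BE2C, 21 of 32 were called higher with shAhR-2, where 35.9% of all genes were, and 4 lower, where 36.2% were, and all 23 channel genes called with it were called again. With mitochondrial genes left out, the same numbers of channel genes were called in each of the 4 comparisons with pLKO-GFP. Values in every library are given for 25 of the 26 channel genes that average at least 1 CPM in a line or are called alike for both shRNAs of a line. Those described among the remaining 14 are given by their ranges. In bulk RNA, fewer cells of a type and less RNA per cell cannot be told apart.

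**Figure D1:**
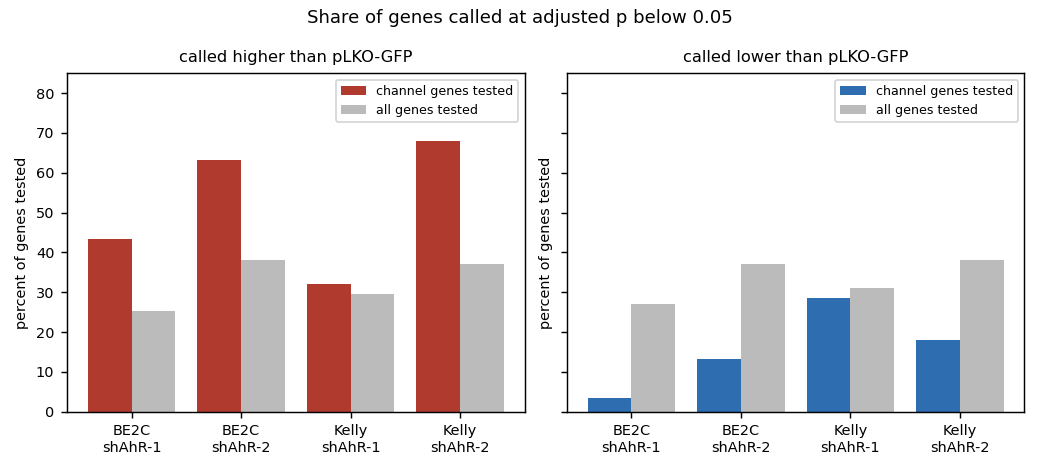
Percent of the channel genes tested (coloured bars) and of all genes tested (grey bars) called at an adjusted p below 0.05, for each shRNA against pLKO-GFP in BE2C and Kelly. The left panel shows calls of higher expression and the right panel calls of lower expression. The channel genes exceed all genes most with shAhR-2, at 63.3% against 38.0% in BE2C and 67.9% against 37.2% in Kelly, and are near all genes in the Kelly libraries labelled shAhR-1.

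The lines differed in which channel genes they expressed before any shRNA was compared. In control libraries 5 of 32 channel genes tested were higher in BE2C than in Kelly, where 37.2% of all genes were, and 20 were lower, where 39.0% of all genes were. The median log2 difference of BE2C less Kelly was -0.95 over the channel genes and -0.03 over all genes. Per kb of exon, the highest levels in BE2C control libraries belonged to SCN3B at 20.8 ± 1.5 CPM per kb, CACNG4 at 17.1 ± 2.1, CACNA2D1 at 12.1 ± 0.402 and CACNA2D2 at 7.41 ± 0.264 (SD, n = 3). Kelly control libraries were led by CACNG4 at 25.2 ± 0.696 CPM per kb, CACNA2D2 at 15.9 ± 0.554, CACNG7 at 13.6 ± 0.281 and CACNA1B at 11.2 ± 0.267 (SD, n = 3). With the longest transcript as the length, CACNA1B ranked 5 in Kelly, behind CACNB3. Among pore genes, the highest per kb were SCN8A at 2.54 ± 0.243 CPM per kb in BE2C and CACNA1B in Kelly.

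Several channel genes were close to absent from 1 line. CACNA1H, a T-type pore, had 635 counts over the BE2C control libraries and 2 over those of Kelly, a rate ratio of 331 (exact 95% interval 91.4 to 2743). CACNG7 and CACNG8, both AMPA receptor regulators, differed the other way, with log2 differences of BE2C less Kelly of -8.79 ± 0.19 and -8.68 ± 0.20. Without the first BE2C control library the CACNG7 difference was -9.49, and without the third the CACNG8 difference was -10.0. CACNG2, the founding member of that family, had 39 counts over the BE2C control libraries and 0 in Kelly. With the 0 set to a floor of 3 counts it was 13.6-fold higher in BE2C. CACNA1C, the main L-type pore of heart and brain, was lower in BE2C by a log2 difference of -6.42 ± 0.23, and CACNA1B, the N-type pore of sympathetic nerve endings, by -3.48 ± 0.06. SCN3B was higher in BE2C by 2.94 ± 0.05, SCN9A by 1.96 ± 0.09 and CACNA2D1 by 1.17 ± 0.04. Each line was deposited in a table of its own, so the line and the table cannot be told apart in these differences. All of them passed edgeR's quasi-likelihood test fitted over both tables.

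**Figure D2:**
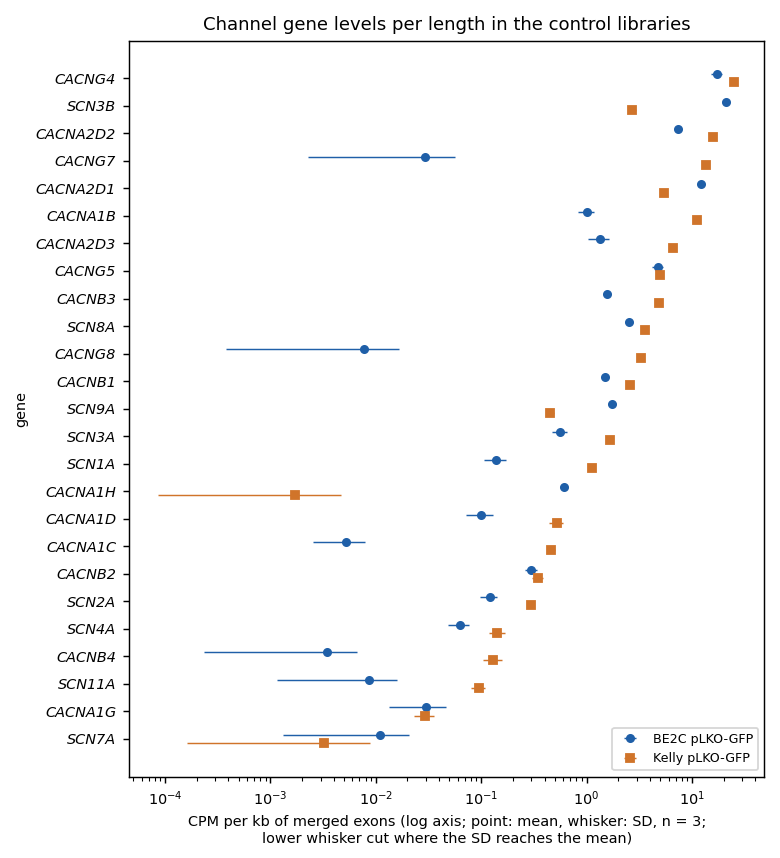
Mean CPM per kb of merged exons of 25 channel genes in the pLKO-GFP libraries of BE2C (circles) and Kelly (squares), on a log axis, with whiskers of 1 SD (n = 3) whose lower end is cut where the SD reaches the mean. Most genes lie further right in Kelly, and SCN3B, SCN9A, CACNA2D1 and CACNA1H are those of the 25 called higher in BE2C.

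The sodium pore genes of the chromosome 2 cluster did not move as a block. SCN3A, SCN2A, SCN1A, SCN9A and SCN7A lie in this order within 1.41 Mb, from 165087522 to 166494326 on GRCh38 in the GENCODE 29 annotation. SCN3A rose with each shRNA in both lines, while nearby SCN1A fell with each of them except in the Kelly libraries labelled shAhR-1, where it rose. Near-identical stretches of these paralogs and overlapping antisense genes could exchange reads, since no source at hand gives the strand setting or how reads with several matches were counted.

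SCN3A (chromosome 2, 165087522 to 165204067, minus strand) encodes the sodium pore most typical of embryonic neurons. In BE2C it had 9.45, 9.6 and 9.41 CPM with shAhR-1 and 30.8, 33.6 and 35.6 CPM with shAhR-2, against 5.2, 4.88 and 6.49 CPM with pLKO-GFP. Kelly cells had 23.8, 24 and 23.4 CPM in the libraries labelled shAhR-1 and 35.7, 40.3 and 38.2 CPM with shAhR-2, against 17.2, 15.4 and 16.9 CPM with pLKO-GFP. Every shRNA library lay above every control library of its line, and shAhR-2 lay above shAhR-1 in both. Log2 fold changes were 0.78 ± 0.10 with shAhR-1 and 2.60 ± 0.09 with shAhR-2 in BE2C, and 0.53 ± 0.06 in the libraries labelled shAhR-1 and 1.20 ± 0.06 with shAhR-2 in Kelly, all called. Of its exon bases, 9.91% are shared with an antisense gene. Elsewhere in the set such overlaps reach 13.0% of exon bases, in CACNB2.

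SCN1A (chromosome 2, 165984641 to 166149214, minus strand) encodes the main sodium pore of inhibitory interneurons, and its loss causes Dravet syndrome. BE2C cells had 0.653, 1.02 and 0.701 CPM with shAhR-1 and 0.466, 0.444 and 0.257 CPM with shAhR-2, against 2.0, 2.05 and 2.97 CPM with pLKO-GFP. Both shRNA groups lay below the controls, and shAhR-2 lay below shAhR-1. The Kelly values were 47, 43.1 and 37.5 CPM in the libraries labelled shAhR-1 and 7.83, 9.3 and 6.75 CPM with shAhR-2, against 18.4, 19.8 and 18.7 CPM with pLKO-GFP. There the libraries labelled shAhR-1 lay highest and those with shAhR-2 lowest, with no overlap among the 3 groups. In log2 terms the changes were -1.57 ± 0.31 and -2.57 ± 0.33 with shAhR-1 and shAhR-2 in BE2C, and 1.17 ± 0.07 and -1.26 ± 0.09 for the labels shAhR-1 and shAhR-2 in Kelly. The shAhR-1 effect in BE2C less that in Kelly was -2.73 ± 0.23 (adjusted p = 7.34e-14 in edgeR's quasi-likelihood test). Between the hairpins in BE2C, shAhR-1 less shAhR-2 was 1.01 ± 0.36, a call that was lost without the second shAhR-1 library (adjusted p = 0.0757 in edgeR's quasi-likelihood test) and without the third shAhR-2 library (adjusted p = 0.074 in edgeR's quasi-likelihood test).

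The RefSeq promoters of SCN1A are shown because this gene fell with shAhR-2 in both lines, where most channel genes tested rose. Each runs from 250 bases before a transcript start to 50 after it on the minus strand of GRCh38.p14, at chr2:166127971-166128270 and chr2:166149112-166149411. Both were searched on both strands for GCGTG, the core of the element bound by AHR and its partner ARNT, and for CACGTG, the E-box, which would appear in capitals. Neither holds a match. No match says only that these letters are not in these windows.
SCN1A inner promoter: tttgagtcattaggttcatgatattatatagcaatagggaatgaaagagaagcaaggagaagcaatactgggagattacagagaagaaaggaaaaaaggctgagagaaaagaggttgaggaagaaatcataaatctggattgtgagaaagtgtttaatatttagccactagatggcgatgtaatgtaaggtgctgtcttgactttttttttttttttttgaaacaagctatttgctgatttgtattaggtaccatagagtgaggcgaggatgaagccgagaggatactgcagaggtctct
SCN1A outer promoter: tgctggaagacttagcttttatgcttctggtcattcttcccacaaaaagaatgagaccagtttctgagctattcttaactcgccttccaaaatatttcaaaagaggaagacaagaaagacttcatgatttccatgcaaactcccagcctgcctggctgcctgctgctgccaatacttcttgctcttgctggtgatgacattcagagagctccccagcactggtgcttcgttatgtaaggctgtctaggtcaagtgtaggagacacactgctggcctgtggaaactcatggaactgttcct

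SCN2A (chromosome 2, 165194993 to 165392310, plus strand), the pore of the early axon initial segment, had 4.01, 5.15 and 4.86 CPM with shAhR-1 and 6.62, 7.01 and 7.04 CPM with shAhR-2, against 3.2, 2.25 and 3.09 CPM with pLKO-GFP in BE2C. SCN2A in Kelly had 5.52, 5.41 and 4.85 CPM in the libraries labelled shAhR-1 and 14.6, 13.8 and 15.2 CPM with shAhR-2, against 7.0, 7.06 and 7.2 CPM with pLKO-GFP. It was higher than control in every shRNA library of BE2C and in the shAhR-2 libraries of Kelly, and lower in the Kelly libraries labelled shAhR-1. The log2 fold changes were 0.71 ± 0.15 and 1.29 ± 0.15 with shAhR-1 and shAhR-2 in BE2C, and -0.43 ± 0.11 and 1.03 ± 0.09 for shAhR-1 and shAhR-2 in Kelly, all called. The shAhR-1 effects of the lines differed by 1.14 ± 0.18, while the shAhR-2 effects differed by 0.24 ± 0.17, which was not called.

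SCN9A (chromosome 2, 166195185 to 166376001, minus strand) encodes the sodium pore of sympathetic and pain-sensing neurons. It had 33.6, 33.2 and 33.8 CPM with shAhR-1 and 14.8, 16.2 and 16.2 CPM with shAhR-2, against 24, 22.1 and 26.2 CPM with pLKO-GFP in BE2C. The 3 BE2C groups did not overlap, with shAhR-1 highest and shAhR-2 lowest. Its Kelly values were 18.7, 20.9 and 20.4 CPM in the libraries labelled shAhR-1 and 13, 10.9 and 13.4 CPM with shAhR-2, against 5.9, 5.98 and 6.76 CPM with pLKO-GFP. There both shRNA groups lay above the controls. Log2 fold changes were 0.48 ± 0.07 with shAhR-1 and -0.60 ± 0.07 with shAhR-2 in BE2C, and 1.70 ± 0.09 and 1.0 ± 0.09 for the labels shAhR-1 and shAhR-2 in Kelly, all called. SCN9A shares 8.17% of its exon bases with an antisense transcript.

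SCN7A (chromosome 2, 166403573 to 166494326, minus strand), a sodium-sensing channel that does not respond to voltage, was measured from few reads. It had 0.35, 0.485 and 0.275 CPM with shAhR-1 and 1.26, 0.843 and 1.5 CPM with shAhR-2, against 0.050, 0.0488 and 0.203 CPM with pLKO-GFP in BE2C, with the shAhR-2 libraries highest and the controls lowest. Kelly gave 1.15, 0.604 and 0.485 CPM in the libraries labelled shAhR-1 and 0.147, 0.0465 and 0.216 CPM with shAhR-2, against 0.0884, 0 and 0 CPM with pLKO-GFP, and the libraries labelled shAhR-1 lay highest while the shAhR-2 and control libraries overlapped. It rose by 1.85 ± 0.60 and 3.56 ± 0.54 with shAhR-1 and shAhR-2 in BE2C and by 4.43 ± 0.74 in the Kelly libraries labelled shAhR-1. In Kelly SCN7A passed the filter on low counts only through those libraries, so a call of higher for that label was fixed by the filter. The Kelly shAhR-2 value of 2.02 ± 0.93 was called narrowly (adjusted p = 0.0472 in edgeR's quasi-likelihood test), and the call was lost in 7 of the 9 fits that each leave out 1 Kelly library, with adjusted p-values up to 0.219 in edgeR's quasi-likelihood test. That call was also lost in DESeq2 (adjusted p = 0.0567 in its Wald test) and with halved counts (adjusted p = 0.07 in edgeR's quasi-likelihood test). In BE2C the shAhR-1 value was 1.54 without the first control library and 1.53 without the second, neither called, and 2.82 without the third, which held most of its control counts. The shAhR-2 value without the third was 4.53. Without the first Kelly control library, which held all of its control counts, the fitted values were 7.92 and 5.51 and are no bound.

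SCN8A, the sodium pore gene with the highest level per kb in BE2C control libraries, rose with shAhR-2 in Kelly. SCN8A (chromosome 12, 51590266 to 51812864, plus strand), the pore of mature axon initial segments and nodes, had 36.1, 37 and 37.6 CPM with shAhR-1 and 38.2, 41.3 and 41.7 CPM with shAhR-2, against 36, 35.6 and 42 CPM with pLKO-GFP in BE2C. The control libraries spanned the range of both shRNA groups, and neither shRNA differed detectably from control, with log2 fold changes of -0.04 ± 0.06 and 0.11 ± 0.06. In Kelly it had 55.8, 51.5 and 48.6 CPM in the libraries labelled shAhR-1 and 79, 83.3 and 78.8 CPM with shAhR-2, against 49.1, 54.5 and 56.4 CPM with pLKO-GFP, and it rose with shAhR-2, by 0.59 ± 0.05, beside -0.03 ± 0.05 in the libraries labelled shAhR-1. The shAhR-2 effect in BE2C less that in Kelly was -0.50 ± 0.08.

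The small difference between hairpins for SCN8A in BE2C, -0.15 ± 0.06 for shAhR-1 less shAhR-2, lost its call in 5 of the fits that leave out 1 library, with adjusted p up to 0.117 in edgeR's quasi-likelihood test without the third shAhR-2 library. Of the 9 sodium pore genes tested, 4 rose and 1 fell with shAhR-1 and 5 rose and 2 fell with shAhR-2 in BE2C. Of all genes, 25.2% rose and 27.1% fell with shAhR-1 and 38.0% rose and 37.2% fell with shAhR-2 there. In Kelly 4 of 9 rose and 3 fell in the libraries labelled shAhR-1, where 29.6% of all genes rose and 31.0% fell, and 7 rose and 2 fell with shAhR-2, where 37.2% rose and 38.2% fell.

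The sodium pore genes SCN11A, SCN4A and SCN10A were scarce. SCN11A (chromosome 3, 38845769 to 38950561, minus strand), a pore of pain-sensing neurons, had 0.187, 0.108 and 0.20 CPM with shAhR-1 and 0.652, 0.399 and 0.815 CPM with shAhR-2, against 0, 0.0976 and 0.101 CPM with pLKO-GFP in BE2C. Kelly values of SCN11A were 1.12, 0.709 and 0.80 CPM in the libraries labelled shAhR-1 and 4.6, 5.44 and 4.39 CPM with shAhR-2, against 0.685, 0.646 and 0.854 CPM with pLKO-GFP. In both lines the shAhR-2 libraries lay above all others, and the log2 fold changes with shAhR-2 were 3.18 ± 0.67 in BE2C and 2.72 ± 0.22 in Kelly. With shAhR-1 they were 1.28 ± 0.78 in BE2C and 0.27 ± 0.27 for that label in Kelly, neither called. SCN11A passed the filter on low counts in BE2C only through the shAhR-2 libraries, which favoured the shAhR-2 call there. SCN4A (chromosome 17, 63938554 to 63972918, minus strand), the skeletal muscle pore, had 0.513, 0.432 and 0.30 CPM with shAhR-1 and 0.559, 0.178 and 0.257 CPM with shAhR-2, against 0.40, 0.635 and 0.507 CPM with pLKO-GFP in BE2C, where the groups overlapped. SCN4A in Kelly had 0.345, 0.184 and 0 CPM in the libraries labelled shAhR-1 and 0.538, 0.186 and 0.389 CPM with shAhR-2, against 1.35, 0.957 and 1.22 CPM with pLKO-GFP. The Kelly controls lay above both other groups, and SCN4A fell by 2.77 ± 0.51 in the libraries labelled shAhR-1 and by 1.67 ± 0.45 with shAhR-2 on the log2 scale. The log2 fold change for the label shAhR-1 was -3.68 without the first library of that label and -2.15 without the third, both called. SCN10A, the pore next to SCN11A on chromosome 3, had 2, 4 and 8 counts in the BE2C shAhR-2 libraries and 0 over their controls. In Kelly it had 14, 0 and 6 counts in the shAhR-2 libraries and 0 over their controls, and it had no count in any library labelled shAhR-1 of either line.

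SCN3B, the one sodium beta gene above 2 CPM in any library, rose with shAhR-2 in both lines. SCN3B (chromosome 11, 123629187 to 123655244, minus strand) encodes a beta subunit that tunes sodium channel gating and is also known as a p53 target. In BE2C it had 217, 222 and 217 CPM with shAhR-1 and 507, 508 and 495 CPM with shAhR-2, against 206, 181 and 204 CPM with pLKO-GFP. The shAhR-2 libraries lay far above the others, and the shAhR-1 libraries lay just above the controls. Kelly cells had 19, 21.3 and 20.5 CPM in the libraries labelled shAhR-1 and 131, 132 and 131 CPM with shAhR-2, against 24.7, 24.1 and 28.3 CPM with pLKO-GFP. There shAhR-2 again lay far above, and the libraries labelled shAhR-1 lay below the controls. The log2 fold changes with shAhR-2 were 1.36 ± 0.04 in BE2C (adjusted p = 2.80e-26 in edgeR's quasi-likelihood test) and 2.35 ± 0.05 in Kelly (adjusted p = 3.93e-41 in the same test of edgeR). With shAhR-1 they were 0.15 ± 0.04 in BE2C and -0.33 ± 0.06 for that label in Kelly, both called.

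The sodium beta genes SCN4B and SCN2B were scarce. SCN4B had 22 counts over the BE2C shAhR-2 libraries, 18 of them in 1 library, and 2 over the controls. Since 1 library held most of the shAhR-2 counts, no fold change is given. SCN2B had 4 counts over all 18 libraries. These genes lie side by side on chromosome 11, within 0.0433 Mb.

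**Figure D3:**
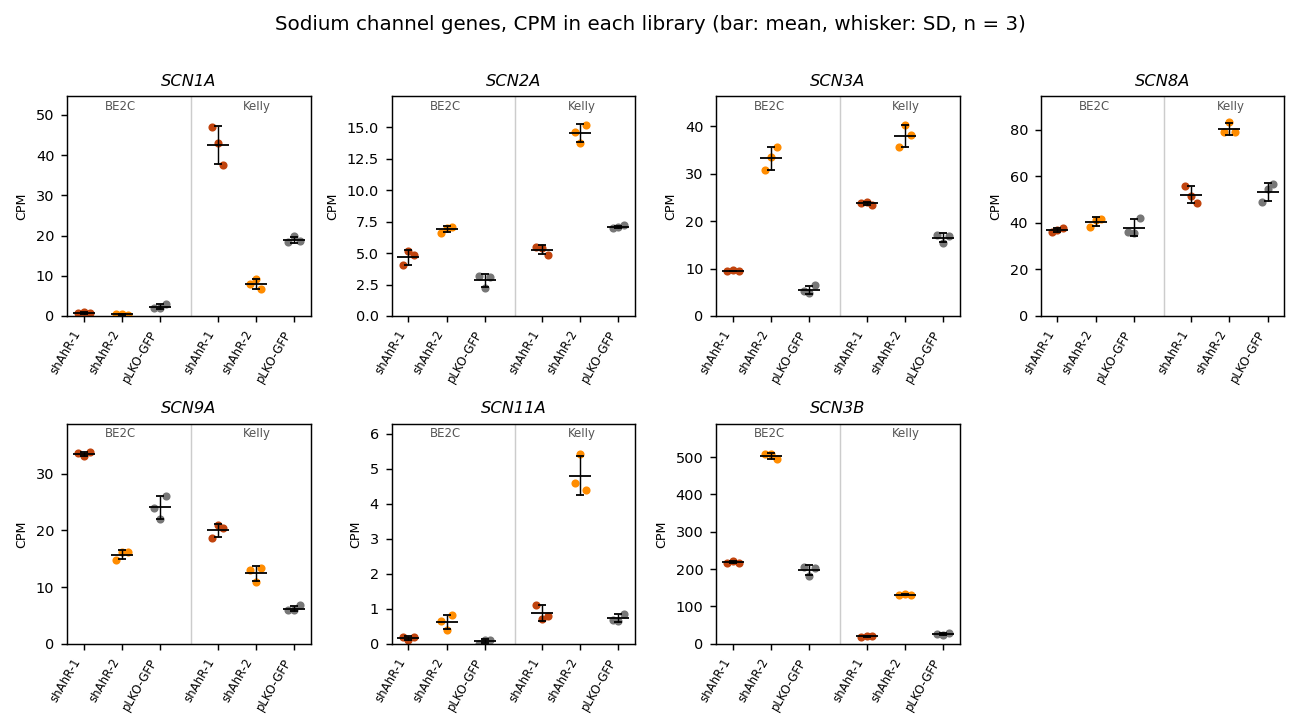
CPM of 7 sodium channel genes in each library of BE2C (left of the grey line) and Kelly (right of it), with points for single libraries, a bar for the mean and whiskers for the SD (n = 3). Within each line the groups run shAhR-1, shAhR-2 and pLKO-GFP. SCN3A and SCN3B are highest with shAhR-2 in both lines, while SCN1A is lowest with shAhR-2 in both and highest in the Kelly libraries labelled shAhR-1.

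The L-type calcium pore genes CACNA1C and CACNA1D rose with shAhR-2 in both lines. CACNA1C (chromosome 12, 1970786 to 2697950, plus strand) encodes the L-type pore of heart, smooth muscle and brain, whose calcium entry couples to gene expression in neurons. BE2C cells had 0.327, 0.216 and 0.35 CPM with shAhR-1 and 1.61, 1.93 and 1.95 CPM with shAhR-2, against 0.10, 0.0488 and 0.152 CPM with pLKO-GFP. All shRNA libraries lay above the controls, from a base near 0 CPM. CACNA1C in Kelly had 19.7, 16.8 and 16.2 CPM in the libraries labelled shAhR-1 and 19.6, 19.2 and 19.6 CPM with shAhR-2, against 8.33, 8.47 and 9.68 CPM with pLKO-GFP, with both shRNA groups about as high as each other and above the controls. In log2 terms the changes were 1.55 ± 0.55 and 4.17 ± 0.46 with shAhR-1 and shAhR-2 in BE2C, and 1.0 ± 0.08 and 1.14 ± 0.08 for shAhR-1 and shAhR-2 in Kelly, all called. CACNA1C passed the filter on low counts in BE2C only through the shAhR-2 libraries, which favoured the shAhR-2 call there. In BE2C the shAhR-1 call was lost without the second control library (log2 fold change 1.23, adjusted p = 0.0834 in edgeR's quasi-likelihood test) and without the third shAhR-1 library (1.42, adjusted p = 0.0553 in the same edgeR test). The shAhR-2 effect in BE2C exceeded that in Kelly by 3.02 ± 0.35. Of its exon bases, 6.28% are shared with antisense genes.

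CACNA1D (chromosome 3, 53328963 to 53813733, plus strand), the L-type pore that opens at lower voltage and paces chromaffin and sinoatrial cells, had 2.47, 2.81 and 3.55 CPM with shAhR-1 and 13.8, 12.8 and 13.7 CPM with shAhR-2, against 1.5, 2.03 and 2.66 CPM with pLKO-GFP in BE2C. Its Kelly values were 13.1, 11.6 and 10.8 CPM in the libraries labelled shAhR-1 and 30.04, 30.5 and 30.2 CPM with shAhR-2, against 11.4, 11.9 and 8.8 CPM with pLKO-GFP. The shAhR-2 libraries lay far above the rest in both lines, and the shAhR-1 and control libraries overlapped in both. With shAhR-2 it rose by 2.71 ± 0.15 in BE2C and 1.49 ± 0.08 in Kelly on the log2 scale. With shAhR-1 in BE2C the value of 0.51 ± 0.17 was called, but not without the first control library (adjusted p = 0.13 in edgeR's quasi-likelihood test) or the third shAhR-1 library (adjusted p = 0.142 in edgeR's quasi-likelihood test), and for that label in Kelly it was 0.14 ± 0.09, not called. CACNA1F, the retinal L-type pore, had at most 0.905 CPM in any library and was called higher with shAhR-2 in Kelly, by 1.68 ± 0.51. There it passed the filter on low counts only through the shAhR-2 libraries, which favoured that call. CACNA1S, the skeletal muscle L-type pore, had no count in BE2C. In Kelly it had 0 counts over the libraries labelled shAhR-1 and 10 over the controls, 3.03-fold lower with the 0 set to a floor of 3 counts. It had 47 counts over the shAhR-2 libraries there.

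The N-type pore gene CACNA1B rose with shAhR-2 in both lines. CACNA1B (chromosome 9, 137877789 to 138124624, plus strand) encodes the N-type pore that serves transmitter release from sympathetic neurons. In BE2C it had 15.6, 16.5 and 16.5 CPM with shAhR-1 and 17.8, 16.8 and 16.6 CPM with shAhR-2, against 10.7, 11.2 and 7.91 CPM with pLKO-GFP. Both shRNA groups lay above the controls. Kelly gave 103, 105 and 99.1 CPM in the libraries labelled shAhR-1 and 156, 163 and 152 CPM with shAhR-2, against 110.3, 109 and 114 CPM with pLKO-GFP, with shAhR-2 above and the libraries labelled shAhR-1 below the controls. The log2 fold changes were 0.70 ± 0.10 and 0.79 ± 0.10 with shAhR-1 and shAhR-2 in BE2C, and -0.11 ± 0.03 and 0.50 ± 0.03 for shAhR-1 and shAhR-2 in Kelly, all called. The shAhR-1 effects differed between lines by 0.82 ± 0.09, and the shAhR-2 effects by 0.27 ± 0.09, a call that was lost without the third BE2C control library (0.13, adjusted p = 0.17 in edgeR's quasi-likelihood test). CACNA1A, the P/Q-type pore, had at most 0.794 CPM and was called higher with shAhR-2 in BE2C, by 3.38 ± 0.69. There it passed the filter on low counts only through the shAhR-2 libraries, which favoured that call. CACNA1E, the R-type pore, had at most 4 counts in any library.

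T-type pores open near the resting potential and drive rebound firing. CACNA1G rose with shAhR-2 in both lines and CACNA1H rose with it in BE2C. CACNA1H in Kelly and CACNA1I in BE2C passed the filter on low counts only through their shAhR-2 libraries, so a call of higher there was fixed by the filter. CACNA1G (chromosome 17, 50561068 to 50627474, plus strand) had 0.84, 0.647 and 0.15 CPM with shAhR-1 and 4.24, 4.93 and 4.25 CPM with shAhR-2, against 0.15, 0.464 and 0.254 CPM with pLKO-GFP in BE2C. In Kelly it had 0.862, 0.736 and 0.582 CPM in the libraries labelled shAhR-1 and 4.97, 4.18 and 4.78 CPM with shAhR-2, against 0.354, 0.239 and 0.259 CPM with pLKO-GFP. The shAhR-2 libraries lay at 4.18 CPM or more and all others below 1 CPM. With shAhR-2 the log2 fold changes were 3.94 ± 0.35 in BE2C and 4.0 ± 0.26 in Kelly, and the difference was not detectable (-0.08 ± 0.51 between lines, not called). With shAhR-1 they were 0.91 ± 0.44 in BE2C, not called, and 1.33 ± 0.33 for that label in Kelly, called.

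CACNA1H (chromosome 16, 1153121 to 1221772, plus strand), the T-type pore of adrenal and sensory cells, had 8.0, 7.2 and 7.63 CPM with shAhR-1 and 16.6, 16.6 and 14.1 CPM with shAhR-2, against 5.67, 5.35 and 4.79 CPM with pLKO-GFP in BE2C. The 3 groups did not overlap, and it rose by 0.53 ± 0.11 with shAhR-1 and 1.59 ± 0.11 with shAhR-2 on the log2 scale. Kelly cells had 0, 0 and 0 CPM in the libraries labelled shAhR-1 and 0.807, 0.744 and 0.93 CPM with shAhR-2, against 0.0442, 0 and 0 CPM with pLKO-GFP. The shAhR-2 libraries of Kelly held 108 counts in all and the controls 2, a rate ratio of 52.1 (exact 95% interval 14.1 to 436). Both control counts came from 1 library. CACNA1I had at most 1.12 CPM. It was called higher with shAhR-2 in BE2C, by 3.63 ± 0.65, and in Kelly it had 34 counts over the shAhR-2 libraries and 2 over the controls, a rate ratio of 16.4 (exact 95% interval 4.21 to 141). Summed over the 10 calcium pore genes, expression in BE2C was 27.9 ± 0.621 CPM with shAhR-1 and 54.7 ± 1.7 CPM with shAhR-2, against 17.9 ± 1.75 CPM with pLKO-GFP (SD, n = 3 each). In Kelly it was 133 ± 5.25 CPM in the libraries labelled shAhR-1 and 214 ± 5.37 CPM with shAhR-2, against 131 ± 1.74 CPM with pLKO-GFP (SD, n = 3 each). Most of the Kelly sum was CACNA1B, which averaged 102, 157 and 111 CPM in these groups, in the same order. The sums are not scaled by gene length.

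The alpha2delta genes did not move together. CACNA2D1 rose with each shRNA in both lines, CACNA2D2 fell with shAhR-2, and CACNA2D3 rose everywhere except with shAhR-2 in Kelly. CACNA2D1 (chromosome 7, 81946444 to 82443798, minus strand) encodes the alpha2delta subunit bound by gabapentin, which brings calcium channels to the surface. BE2C cells had 198, 189.9 and 197 CPM with shAhR-1 and 246, 255 and 255 CPM with shAhR-2, against 106, 108 and 113 CPM with pLKO-GFP. CACNA2D1 in Kelly had 133, 126 and 131 CPM in the libraries labelled shAhR-1 and 164, 159.6 and 172 CPM with shAhR-2, against 45.1, 51.8 and 48.3 CPM with pLKO-GFP. The groups did not overlap in either line, with shAhR-2 highest, shAhR-1 next and the controls lowest. Log2 fold changes were 0.83 ± 0.03 with shAhR-1 and 1.22 ± 0.03 with shAhR-2 in BE2C (adjusted p = 4.12e-20 and 1.70e-25 in edgeR's quasi-likelihood test). In Kelly they were 1.43 ± 0.04 for the label shAhR-1 and 1.77 ± 0.04 with shAhR-2 (adjusted p = 4.47e-34 and 4.03e-39 in edgeR's quasi-likelihood test). The effect in BE2C less that in Kelly was -0.59 ± 0.05 for shAhR-1 and -0.57 ± 0.05 for shAhR-2, both called.

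The RefSeq promoters of CACNA2D1, which rose with each shRNA, of CACNA1C, which rose with both shRNAs in BE2C over controls near 0 CPM, and of CACNA1B, which holds both motifs, are shown for comparison. They lie on GRCh38.p14 at chr7:82443907-82444206 on the minus strand, chr12:2052737-2053036 on the plus strand and chr9:137877532-137877831 on the plus strand, and the CACNA1C window lies downstream of the annotated start of that gene. Capitals mark GCGTG, which reads CACGC where it lies on the opposite strand, and CACGTG, and the matches do not overlap.
CACNA2D1: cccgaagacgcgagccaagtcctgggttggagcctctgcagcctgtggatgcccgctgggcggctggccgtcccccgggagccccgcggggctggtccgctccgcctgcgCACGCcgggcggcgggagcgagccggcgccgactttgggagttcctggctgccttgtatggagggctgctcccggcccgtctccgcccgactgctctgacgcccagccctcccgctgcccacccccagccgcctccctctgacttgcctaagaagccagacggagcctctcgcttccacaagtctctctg
CACNA1C: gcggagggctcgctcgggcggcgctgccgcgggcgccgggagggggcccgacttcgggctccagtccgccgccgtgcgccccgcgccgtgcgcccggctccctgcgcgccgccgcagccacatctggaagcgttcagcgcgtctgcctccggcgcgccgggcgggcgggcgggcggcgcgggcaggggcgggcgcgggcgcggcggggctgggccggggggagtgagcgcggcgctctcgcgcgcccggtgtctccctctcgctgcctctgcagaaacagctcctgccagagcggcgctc
CACNA1B: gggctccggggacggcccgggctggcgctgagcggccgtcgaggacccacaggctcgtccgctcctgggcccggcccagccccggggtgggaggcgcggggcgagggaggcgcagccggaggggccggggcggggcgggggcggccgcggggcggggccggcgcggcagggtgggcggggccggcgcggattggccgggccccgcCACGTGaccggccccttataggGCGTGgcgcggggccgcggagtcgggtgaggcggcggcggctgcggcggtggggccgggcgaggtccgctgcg

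In CACNA2D1 the GCGTG match begins 140 bases before the start, and CACNA1C has none of these motifs in its window. In CACNA1B, GCGTG begins 23 bases and CACGTG 45 bases before the start. RefSeq promoters were matched for 26 of the 40 channel genes, 40 promoters in all. GCGTG was found in 11 of these 40 (27.5%), against 36.5% of 35116 human promoters of the same length, and CACGTG in 2 of 40 (5.0%), against 7.26%. Both motifs were searched on both strands. Among other genes that rose with shAhR-2 in both lines, GCGTG occurs in the promoter of CACNA1D and 1 promoter of SCN7A, and among genes that fell it occurs in 1 promoter of CACNA2D2. A match describes the sequence and is no measure of binding.

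CACNA2D2 (chromosome 3, 50362799 to 50504244, minus strand), an alpha2delta gene prominent in cerebellum, had 46.2, 42.3 and 41.8 CPM with shAhR-1 and 28.1, 26.2 and 28.3 CPM with shAhR-2, against 48.7, 46.2 and 45.6 CPM with pLKO-GFP in BE2C. Its Kelly values were 96.6, 94 and 92.6 CPM in the libraries labelled shAhR-1 and 65.4, 58.7 and 59.8 CPM with shAhR-2, against 97.8, 104 and 98.9 CPM with pLKO-GFP. The shAhR-2 libraries lay below all others in both lines. It fell by 0.76 ± 0.06 in BE2C and 0.72 ± 0.04 in Kelly with shAhR-2 on the log2 scale, and the shAhR-1 values of -0.11 ± 0.05 in BE2C and -0.08 ± 0.04 for that label in Kelly were not called. CACNA2D2 shares 9.59% of its exon bases with antisense genes.

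CACNA2D3 (chromosome 3, 54122547 to 55074557, plus strand), whose orthologue in flies and mice is needed for heat nociception, had 10.2, 11.7 and 8.71 CPM with shAhR-1 and 12.2, 14.3 and 12.6 CPM with shAhR-2, against 6.52, 4.74 and 7.48 CPM with pLKO-GFP in BE2C. All shRNA libraries lay above the controls there. Kelly gave 70.8, 76.4 and 73.9 CPM in the libraries labelled shAhR-1 and 29.8, 29.9 and 32.7 CPM with shAhR-2, against 29.9, 30.7 and 31.1 CPM with pLKO-GFP, with the libraries labelled shAhR-1 far above the other groups, which overlapped. In log2 terms the changes were 0.71 ± 0.13 and 1.07 ± 0.13 with shAhR-1 and shAhR-2 in BE2C, 1.27 ± 0.05 for the label shAhR-1 in Kelly, all called, and 0.00 ± 0.05 with shAhR-2 in Kelly, not called. The shAhR-2 effect in BE2C exceeded that in Kelly by 1.05 ± 0.13. Between the hairpins in BE2C, the value of -0.37 ± 0.12 lost its call without the third shAhR-1 library (adjusted p = 0.0845 in edgeR's quasi-likelihood test) and without the second shAhR-2 library (adjusted p = 0.0594 in edgeR's quasi-likelihood test). CACNA2D4 had 32 counts over the BE2C shAhR-2 libraries and 0 over the controls, 9.54-fold higher with the 0 set to a floor of 3 counts. In Kelly CACNA2D4 had 0 counts over the libraries labelled shAhR-1 and 10 over the controls, 3.03-fold lower against the same floor. It had 52 counts over the shAhR-2 libraries there. Summed over the 4 genes, expression in BE2C was 249 ± 5.28 CPM with shAhR-1 and 292 ± 5.49 CPM with shAhR-2, against 162 ± 3.81 CPM with pLKO-GFP (SD, n = 3 each). In Kelly the sum was 298 ± 2.03 CPM in the libraries labelled shAhR-1 and 258 ± 8.3 CPM with shAhR-2, against 179 ± 7.07 CPM with pLKO-GFP (SD, n = 3 each). These sums too are not scaled by gene length.

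Among the calcium beta genes, which encode the cytoplasmic subunits that bind the pore and carry it to the membrane, CACNB3 rose with both shRNAs in BE2C and CACNB1 and CACNB4 rose with shAhR-2 in Kelly. CACNB3 (chromosome 12, 48813794 to 48828941, plus strand) had 15.7, 14.5 and 16.7 CPM with shAhR-1 and 29.5, 27.3 and 25.1 CPM with shAhR-2, against 11.3, 11.1 and 10.9 CPM with pLKO-GFP in BE2C. The 3 groups did not overlap, and CACNB3 rose by 0.49 ± 0.08 with shAhR-1 and 1.31 ± 0.08 with shAhR-2 on the log2 scale. In Kelly it had 34.4, 37.8 and 32.5 CPM in the libraries labelled shAhR-1 and 35.9, 34.1 and 33.8 CPM with shAhR-2, against 34.2, 33.4 and 35.6 CPM with pLKO-GFP, where all groups overlapped and the log2 fold changes were 0.02 ± 0.06 for the label shAhR-1 and 0.00 ± 0.06 with shAhR-2. The effects in BE2C exceeded those in Kelly by 0.47 ± 0.10 for shAhR-1 and 1.29 ± 0.10 for shAhR-2, both called.

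CACNB1 (chromosome 17, 39173456 to 39197703, minus strand), the beta subunit of skeletal muscle and brain, had 12.5, 11.4 and 11.5 CPM with shAhR-1 and 11.2, 12.2 and 9.82 CPM with shAhR-2, against 10.7, 11.1 and 9.89 CPM with pLKO-GFP in BE2C, where the shAhR-1 libraries lay above the controls but neither shRNA was called. Kelly cells had 18.3, 18.6 and 16.7 CPM in the libraries labelled shAhR-1 and 24.1, 27.1 and 25.6 CPM with shAhR-2, against 17.5, 19.6 and 17.8 CPM with pLKO-GFP, and it rose with shAhR-2, by 0.48 ± 0.07. CACNB4 (chromosome 2, 151832768 to 152099475, minus strand), which is mutated in the lethargic mouse, had 0.163, 0.108 and 0.10 CPM with shAhR-1 and 0.513, 0.133 and 0.257 CPM with shAhR-2, against 0.025, 0.0976 and 0.254 CPM with pLKO-GFP in BE2C, with overlapping groups. Kelly values of CACNB4 were 3.36, 3.34 and 3.54 CPM in the libraries labelled shAhR-1 and 8.32, 8.39 and 8.0 CPM with shAhR-2, against 4.09, 4.23 and 5.83 CPM with pLKO-GFP, with shAhR-2 above and the libraries labelled shAhR-1 below the controls. There the log2 fold changes were -0.45 ± 0.14 for the label shAhR-1 and 0.80 ± 0.13 with shAhR-2, and the call for the label shAhR-1 was lost without the third control library (-0.28, adjusted p = 0.101 in edgeR's quasi-likelihood test). CACNB2 (chromosome 10, 18140677 to 18543557, plus strand), the cardiac beta subunit, had 3.48, 2.56 and 3.0 CPM with shAhR-1 and 2.63, 3.73 and 2.79 CPM with shAhR-2, against 2.55, 3.05 and 2.43 CPM with pLKO-GFP in BE2C. CACNB2 in Kelly had 3.02, 2.26 and 2.76 CPM in the libraries labelled shAhR-1 and 2.96, 2.53 and 2.7 CPM with shAhR-2, against 3.0, 2.75 and 3.5 CPM with pLKO-GFP, and it was called in no comparison of either line.

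Within the gamma family, CACNG4 fell with shAhR-2 in both lines while CACNG8 rose with it. CACNG4 (chromosome 17, 66964910 to 67033398, plus strand), a regulator of AMPA receptors expressed early in development, had 74.5, 75.3 and 77.1 CPM with shAhR-1 and 30.9, 29.1 and 27.4 CPM with shAhR-2, against 64.6, 50.5 and 58.5 CPM with pLKO-GFP in BE2C. The shAhR-1 libraries lay above the controls and the shAhR-2 libraries below them. CACNG4 in Kelly had 84, 82 and 85.1 CPM in the libraries labelled shAhR-1 and 36.9, 41.4 and 36 CPM with shAhR-2, against 87.1, 82.5 and 85.6 CPM with pLKO-GFP, with shAhR-2 below the other groups, which overlapped. The log2 fold changes with shAhR-2 were -0.98 ± 0.06 in BE2C and -1.17 ± 0.04 in Kelly. With shAhR-1 they were 0.38 ± 0.06 in BE2C, called, and -0.02 ± 0.04 for that label in Kelly, not called. CACNG5 (chromosome 17, 66835117 to 66885486, plus strand), its neighbour on chromosome 17, had 6.53, 6.42 and 5.46 CPM with shAhR-1 and 5.45, 7.06 and 5.38 CPM with shAhR-2, against 6.85, 6.49 and 5.33 CPM with pLKO-GFP in BE2C, where all groups overlapped. Kelly values of CACNG5 were 2.15, 3.21 and 2.76 CPM in the libraries labelled shAhR-1 and 1.71, 1.44 and 2.08 CPM with shAhR-2, against 7.05, 6.22 and 6.47 CPM with pLKO-GFP. Both groups with an shRNA label lay below the controls, by log2 fold changes of -1.27 ± 0.16 for the label shAhR-1 and -1.92 ± 0.16 with shAhR-2. The shAhR-2 effect in BE2C less that in Kelly was 1.85 ± 0.22 for CACNG5. CACNG1, the gamma subunit of the skeletal muscle calcium channel and the third gene of this cluster, had 0 counts over the Kelly shAhR-2 libraries and 28 over the controls. With the 0 set to a floor of 3 counts it was 9.66-fold lower.

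CACNG8 (chromosome 19, 53963040 to 53990215, plus strand), an AMPA receptor regulator abundant in hippocampus, had 0.117, 0.0539 and 0.25 CPM with shAhR-1 and 1.26, 0.843 and 0.643 CPM with shAhR-2, against 0, 0.0488 and 0.152 CPM with pLKO-GFP in BE2C. Its Kelly values were 15.6, 17.4 and 18.4 CPM in the libraries labelled shAhR-1 and 93.4, 92 and 92.2 CPM with shAhR-2, against 27.6, 28.7 and 29 CPM with pLKO-GFP. The shAhR-2 libraries lay above all others of their line, and the Kelly libraries labelled shAhR-1 lay below the controls. The log2 fold changes were 3.73 ± 0.66 with shAhR-2 in BE2C, and -0.72 ± 0.06 for the label shAhR-1 and 1.70 ± 0.05 with shAhR-2 in Kelly. The shAhR-1 value of 1.05 ± 0.83 in BE2C was not called. CACNG7 (chromosome 19, 53909335 to 53943941, plus strand), next to it on chromosome 19, had 0, 0.162 and 0.0501 CPM with shAhR-1 and 0.583, 0.932 and 0.429 CPM with shAhR-2, against 0.15, 0.0976 and 0 CPM with pLKO-GFP in BE2C, where the shAhR-2 libraries lay above the rest. CACNG7 in Kelly had 43.7, 48.1 and 48 CPM in the libraries labelled shAhR-1 and 41.2, 43 and 37.9 CPM with shAhR-2, against 37.6, 38 and 39.1 CPM with pLKO-GFP. It rose by 2.93 ± 0.71 with shAhR-2 in BE2C and by 0.29 ± 0.05 in the Kelly libraries labelled shAhR-1, while the Kelly shAhR-2 value was 0.09 ± 0.05, not called. In BE2C, CACNG7 and CACNG8 passed the filter on low counts only through the shAhR-2 libraries, which favoured their calls. Counts of both genes in the BE2C controls were between 0 and 6 in each library, and the shAhR-2 value was 5.05 for CACNG8 without the third control library and 3.63 for CACNG7 without the first. CACNG2, CACNG3 and CACNG6 had at most 30 counts in any library.

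**Figure D4:**
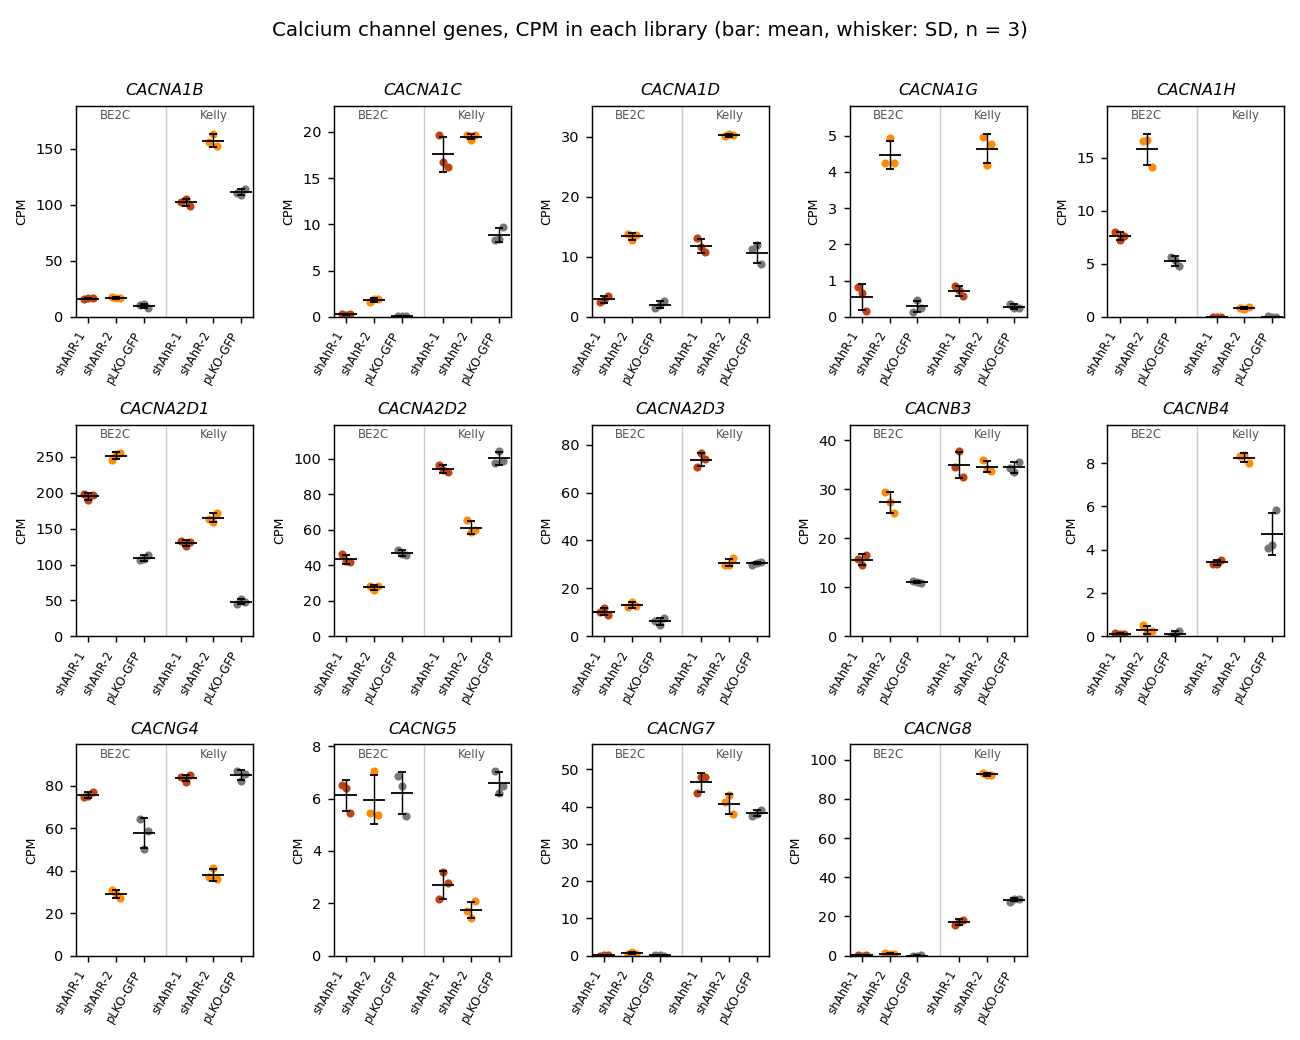
CPM of 14 calcium channel genes in each library of BE2C (left of the grey line) and Kelly (right of it), with points for single libraries, a bar for the mean and whiskers for the SD (n = 3). Within each line the groups run shAhR-1, shAhR-2 and pLKO-GFP. CACNA1G and CACNA1D are highest with shAhR-2 in both lines, CACNA2D2 and CACNG4 are lowest with it, and CACNA2D3 is highest in the Kelly libraries labelled shAhR-1.

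The lines share no library, so the calls for 1 hairpin can be set side by side across them. Of 27 channel genes tested in both lines, 14 were called higher with shAhR-2 in both, where 25.0% of all genes tested in both were. Among them were the sodium pore genes SCN2A, SCN3A, SCN7A and SCN11A, the sodium beta gene SCN3B, the calcium pore genes CACNA1B, CACNA1C, CACNA1D, CACNA1G and CACNA1H, and CACNA2D1 and CACNG8. Of these, SCN11A, CACNA1C and CACNG8 in BE2C and CACNA1H in Kelly passed the filter only through the shAhR-2 libraries. The SCN7A call with shAhR-2 in Kelly was lost in 9 alternative fits, DESeq2 and halved counts among them. Another 3 were called lower with shAhR-2 in both, namely CACNA2D2, CACNG4 and SCN1A, where 28.0% of all genes were. For the label shAhR-1, 6 were called higher in both, where 16.1% of all genes were, and 0 lower, where 19.2% of all genes were. Those 6 were CACNA1C, CACNA2D1, CACNA2D3, SCN3A, SCN7A and SCN9A. Of these, SCN7A in Kelly passed the filter only through the libraries labelled shAhR-1.

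The hairpins differed from each other. In BE2C, shAhR-1 less shAhR-2 was called higher for 4 of 30 channel genes, where 35.9% of all genes were, and lower for 19, where 36.5% of all genes were, with a median log2 difference of -0.70 against -0.01 over all genes. In Kelly it was called higher for 8 of 28, where 39.3% of all genes were, and lower for 16, where 38.2% of all genes were, with a median of -0.56 against 0.01 over all genes. With the genes limited to a mean of at least 1 CPM, 11 of 19 were called lower in BE2C, where 39.9% of all genes were. SCN3B differed by -1.22 ± 0.04 in BE2C and -2.68 ± 0.05 in Kelly, and SCN1A and CACNG8 differed in Kelly by 2.43 ± 0.08 and -2.42 ± 0.05. Across both lines, the effect of shAhR-1 in BE2C less that in Kelly was called higher for 10 of 32 channel genes, where 17.5% of all genes were, and lower for 4, where 18.2% were. For shAhR-2 it was called higher for 9, where 28.8% of all genes were, and lower for 7, where 25.8% were.

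**Figure D5:**
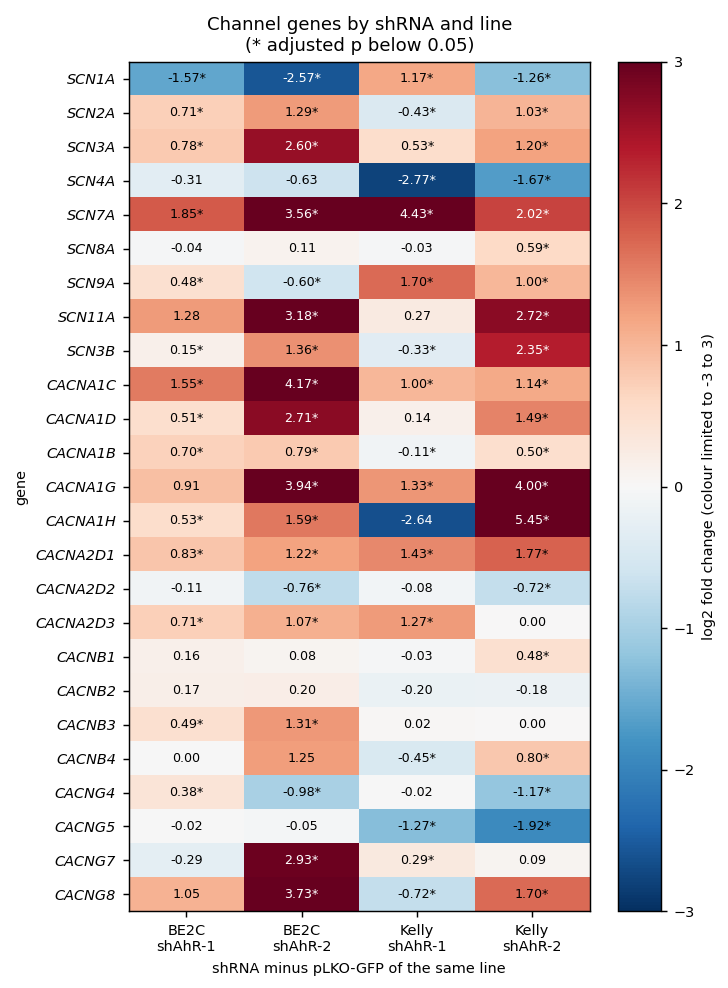
Log2 fold change of 25 channel genes for each shRNA over pLKO-GFP of the same line, with red for higher, blue for lower, the value in each cell and an asterisk for an adjusted p below 0.05. SCN3A, SCN7A, CACNA1C and CACNA2D1 are red in all columns, SCN1A is blue in all but the column of the Kelly libraries labelled shAhR-1, and the fitted Kelly values of CACNA1H and SCN7A rest on controls with few counts.

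Genes whose products anchor or regulate these channels showed no single direction. The counts of such genes stand beside the shares of all genes called, which were 25.2% higher and 27.1% lower with shAhR-1 and 38.0% higher and 37.2% lower with shAhR-2 in BE2C. In Kelly those shares were 29.6% and 31.0% for the label shAhR-1 and 37.2% and 38.2% with shAhR-2. Of 7 sodium channel partner genes tested in BE2C, 3 rose and 2 fell with shAhR-1 and 4 rose and 1 fell with shAhR-2. In Kelly, of 8 tested, 4 rose and 2 fell in the libraries labelled shAhR-1 and 5 rose and 1 fell with shAhR-2. SPTBN4, the spectrin that holds sodium channels at the axon initial segment, rose by 1.08 ± 0.10 and 1.47 ± 0.10 with shAhR-1 and shAhR-2 in BE2C, and by 0.23 ± 0.06 and 1.03 ± 0.06 for shAhR-1 and shAhR-2 in Kelly. ANK3, the ankyrin of the same site, rose by 0.67 ± 0.13 and 0.98 ± 0.13 with shAhR-1 and shAhR-2 in BE2C, but had 0.59 ± 0.09 and -0.46 ± 0.09 for shAhR-1 and shAhR-2 in Kelly. ANK2 had -0.42 ± 0.04 and -0.45 ± 0.04 with shAhR-1 and shAhR-2 in BE2C, and 0.52 ± 0.04 for the label shAhR-1 and 0.04 ± 0.04 with shAhR-2, not called, in Kelly. FGF14, a factor that binds the sodium channel tail, rose by 0.97 ± 0.11 for the label shAhR-1 and 0.76 ± 0.11 with shAhR-2 in Kelly, and was not called in BE2C.

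Of 8 calcium channel partner genes tested in BE2C, 5 rose and 1 fell with shAhR-1 and 4 rose and 2 fell with shAhR-2, and of 7 tested in Kelly, 1 rose and 2 fell in the libraries labelled shAhR-1 and 4 rose and 2 fell with shAhR-2. RIMBP2, which ties calcium channels to release sites, rose by 0.57 ± 0.04 and 0.66 ± 0.04 with shAhR-1 and shAhR-2 in BE2C, and in Kelly had -0.07 ± 0.04 for the label shAhR-1, not called, and 0.29 ± 0.04 with shAhR-2, called. STAC2, an adaptor of L-type channels, rose by 0.46 ± 0.08 and 1.33 ± 0.08 with shAhR-1 and shAhR-2 in BE2C, and had -0.59 ± 0.14 and 1.48 ± 0.12 for shAhR-1 and shAhR-2 in Kelly. In the complex of the sodium leak channel, which sets resting excitability, UNC79 rose by 0.21 ± 0.08 and 0.78 ± 0.07 and UNC80 by 0.32 ± 0.08 and 0.28 ± 0.08 with shAhR-1 and shAhR-2 in BE2C. In Kelly UNC79 had -0.14 ± 0.06 and 0.68 ± 0.05 and UNC80 had -0.38 ± 0.06 and 0.29 ± 0.06 for shAhR-1 and shAhR-2, all called. The pore gene of that complex, NALCN, was at 0 in BE2C and had -0.69 ± 0.22 for the label shAhR-1 and 1.15 ± 0.19 with shAhR-2 in Kelly, both called. The auxiliary subunit gene FAM155B had -0.89 ± 0.09 and -2.40 ± 0.10 with shAhR-1 and shAhR-2 in BE2C, and -0.41 ± 0.08 and -1.79 ± 0.09 for shAhR-1 and shAhR-2 in Kelly. That list held 5 genes, of which 3 rose and 1 fell with shAhR-1 and 2 rose and 2 fell with shAhR-2 among 4 tested in BE2C. In Kelly, with all 5 tested, 1 rose and 4 fell in the libraries labelled shAhR-1 and 3 rose and 2 fell with shAhR-2.

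REST and its corepressors silence many neuronal genes, sodium channel genes among them, outside neurons. Of the 7 genes of that list, 3 rose and 3 fell with shAhR-1 and 3 rose and 2 fell with shAhR-2 in BE2C, and 3 rose and 4 fell in the libraries labelled shAhR-1 and 1 rose and 3 fell with shAhR-2 in Kelly. REST itself averaged 1.0 ± 0.17 CPM with shAhR-1 and 24.9 ± 1.06 CPM with shAhR-2 in BE2C, against 2.02 ± 0.144 CPM with pLKO-GFP (SD, n = 3 each). In Kelly it averaged 2.57 ± 0.412 CPM in the libraries labelled shAhR-1 and 4.82 ± 0.0891 CPM with shAhR-2, against 5.41 ± 0.923 CPM with pLKO-GFP (SD, n = 3 each). REST rose by 3.64 ± 0.12 with shAhR-2 in BE2C, fell by 1.01 ± 0.17 with shAhR-1 there and by 1.07 ± 0.15 in the Kelly libraries labelled shAhR-1, and had -0.18 ± 0.14 with shAhR-2 in Kelly, not called. The part of REST in the channel results was not tested. The deacetylase genes HDAC1 and HDAC2 fell in each of the 4 comparisons. HDAC1 had -0.46 ± 0.04 and -0.80 ± 0.04 with shAhR-1 and shAhR-2 in BE2C, and -0.43 ± 0.04 and -0.97 ± 0.04 for shAhR-1 and shAhR-2 in Kelly. HDAC2 had -0.36 ± 0.03 and -0.51 ± 0.03 with shAhR-1 and shAhR-2 in BE2C and -0.33 ± 0.03 and -0.55 ± 0.03 for shAhR-1 and shAhR-2 in Kelly. The corepressor gene RCOR3 rose by 0.32 ± 0.04 and 0.15 ± 0.04 in BE2C and 0.25 ± 0.04 and 0.34 ± 0.04 in Kelly, again for shAhR-1 and shAhR-2. RCOR2 rose by 1.26 ± 0.08 and 0.57 ± 0.09 with shAhR-1 and shAhR-2 in BE2C and by 0.63 ± 0.04 for the label shAhR-1 in Kelly, where shAhR-2 was not called. RCOR1 rose by 0.45 ± 0.04 with shAhR-1 in BE2C and by 0.67 ± 0.06 for that label in Kelly, with no call for shAhR-2. SIN3A had -0.15 ± 0.03 for the label shAhR-1 and -0.30 ± 0.03 with shAhR-2 in Kelly, and was not called in BE2C.

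Markers of other cell types also moved with shAhR-2. Of all genes, 25.2% rose and 27.1% fell with shAhR-1 and 38.0% rose and 37.2% fell with shAhR-2 in BE2C. In Kelly 29.6% of all genes rose and 31.0% fell for the label shAhR-1, and 37.2% rose and 38.2% fell with shAhR-2. The summed Schwann cell and glial markers had 2.29 to 3.5 CPM with shAhR-1 and 13.6 to 14.3 CPM with shAhR-2 in BE2C, against 2.61 to 3.55 CPM with pLKO-GFP, and 4 of 6 tested rose with shAhR-2 and 0 with shAhR-1. In Kelly they had 3.25 to 3.39 CPM in the libraries labelled shAhR-1 and 11.8 to 12.1 CPM with shAhR-2, against 4.88 to 5.64 CPM with pLKO-GFP, and 4 of 5 tested rose with shAhR-2 while 1 fell in the libraries labelled shAhR-1. S100B was at 0 in the Kelly libraries labelled shAhR-1 and had only 4 counts over the Kelly controls. The summed fibroblast markers had 181 to 189.6 CPM with shAhR-1 and 303 to 315 CPM with shAhR-2 in BE2C, against 171 to 174 CPM with pLKO-GFP, and of 7 tested, 3 rose and 1 fell with shAhR-1 and 5 rose and 1 fell with shAhR-2. In Kelly they had 80.7 to 92.6 CPM in the libraries labelled shAhR-1 and 111 to 112 CPM with shAhR-2, against 115 to 122 CPM with pLKO-GFP, and of 6 tested, 2 rose and 2 fell in the libraries labelled shAhR-1 and 1 rose and 3 fell with shAhR-2. COL1A1 had 24.2 to 28.9 CPM with shAhR-2 in BE2C, against 1.14 to 1.72 CPM with pLKO-GFP, and 6.49 to 7.29 CPM with shAhR-2 in Kelly, against 9.35 to 10.5 CPM with pLKO-GFP. COL1A2 was nearly absent throughout, with 0 counts over the shAhR-2 libraries of each line, against 3 over the BE2C controls and 2 over the Kelly controls. Of the muscle markers, MYOD1 was at 0 in all BE2C libraries and over the Kelly controls. ACTA1 had 21 counts over the BE2C controls and 52 over the Kelly controls. The part of these markers in the channel results was not tested.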

How the data were processed

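Total RNA was purified with the miRNeasy kit and made into libraries with HyperPrep and RiboErase reagents, which deplete ribosomal RNA, per the labels' protocols. The authors deposited raw counts per gene, with 1 table for each line. Reads were handled with CASAVA 1.8.2 and STAR 2.7.9a on GRCh38.p7, per the submitters' processing notes. For the counting tool, annotation, strand setting and treatment of multiple matches, details were not given in the sources used here. Of the counts from 1 to 20, between 68.3% and 72.5% were even, so the 2 mates of a fragment may each add a count. Intervals and floors cover counting error only and may be too narrow. They pool the counts of a group and leave out variation between its libraries.

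Counts were filtered with filterByExpr, scaled by TMM and fitted with glmQLFit and glmQLFTest in edgeR 4.0.16 (limma 3.58.1, R 4.3.3). The 3 groups of a line were fitted together, and all 18 libraries were fitted for differences between lines and for line-by-shRNA interactions. P-values were adjusted by Benjamini-Hochberg over all genes tested, with a threshold of 0.05. The scripts were tested on simulated data. CPM used the TMM sizes of the 18-library fit, and CPM per kb divided it by merged exon length in GENCODE 29, which also gave gene positions on GRCh38. For a gene with no count in a group, folds were computed against a floor of 3 counts over the group. Rate ratios carry exact 95% intervals. Promoters came from RefSeq on GRCh38.p14.

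Values in every library are given for channel genes that average at least 1 CPM in a line or are called alike for both shRNAs of a line. Some genes are not reported here. The channel genes, the partner and marker lists and the tests were chosen with earlier results of these data known. The alternatives were RLE size factors, other filters on low counts, the replicate number as a block, only the groups compared, DESeq2 1.42.0, halved counts, mitochondrial genes left out and each library left out in turn. Descriptions used matplotlib 3.10.9, scipy 1.17.1, pandas 2.3.3 and numpy 2.4.6 under Python 3.11.15.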

Additional observations from a re-analysis of the deposited data

Results flagged for a closer look

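For 14 of 32 channel genes the log2 effect of shAhR-1 in BE2C less the effect of the libraries labelled shAhR-1 in Kelly passed the line-by-shRNA interaction test of edgeR's quasi-likelihood fit, 10 of them higher and 4 lower, where 17.5% of all genes were higher and 18.2% lower. That difference was -2.73 for SCN1A, 1.14 for SCN2A, 2.46 for SCN4A, -1.21 for SCN9A and 0.49 for SCN3B among the sodium channel genes. Among calcium pore and auxiliary genes it was 0.82 for CACNA1B, 3.53 for CACNA1F, -0.59 for CACNA2D1, -0.56 for CACNA2D3, 0.47 for CACNB3, 0.41 for CACNG4, 1.26 for CACNG5 and 1.79 for CACNG8. The value of 8.90 for CACNA2D4 was fitted with groups at 0 counts and is no bound. The CACNG8 call was lost without the first or second BE2C control library (1.23 and 1.61), without the third BE2C shAhR-1 library (1.12) and with halved counts (1.83). The CACNG8 value was 3.12 without the third BE2C control library. That of SCN4A was 3.37 without the first Kelly library labelled shAhR-1 and 1.85 without the third.

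For 16 of 32 channel genes the same test was passed for shAhR-2, 9 of them higher and 7 lower, where 28.8% of all genes were higher and 25.8% lower. The log2 effect in BE2C less that in Kelly was -1.33 for SCN1A, 1.39 for SCN3A, -0.50 for SCN8A, -1.61 for SCN9A and -1.0 for SCN3B. Among calcium pore genes it was 0.27 for CACNA1B, 3.02 for CACNA1C, 1.21 for CACNA1D and -3.88 for CACNA1H, whose Kelly controls held 2 counts in all. Among auxiliary genes it was -0.57 for CACNA2D1, 1.05 for CACNA2D3, -0.42 for CACNB1, 1.29 for CACNB3, 1.85 for CACNG5, 2.82 for CACNG7 and 2.01 for CACNG8. The CACNA1H value was -6.52 without the first Kelly control library. The CACNA1B call was lost without the third BE2C control library (0.13). The CACNG7 value was 3.52 without the first BE2C control library, and the CACNG8 value was 3.33 without the third.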

How the results depend on the processing

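With genes of a mean of at least 1 CPM only, fewer channel genes were tested, and 12 of 19 were called higher with shAhR-2 in BE2C and 11 of 19 lower for shAhR-1 less shAhR-2 in BE2C. That mean was taken over all libraries of the line, shAhR-2 included. Leaving out 1 library at a time gave 11 to 14 higher and 1 to 2 lower with shAhR-1 in BE2C, 2 of them without the first or the second shAhR-1 library, and 19 to 23 higher with shAhR-2. In Kelly it gave 9 to 10 higher and 8 to 11 lower for the label shAhR-1, and 19 to 22 higher with shAhR-2. The other counts of channel genes called stayed within 1.5 times their value under every alternative tried. Of 4574 values of the 26 channel genes that average at least 1 CPM in a line or are called alike for both shRNAs of a line, 4508 kept their direction and side of the threshold, 35 lost a call, 31 gained one and none that was called changed sign, while 70 that were not called did. With the replicate number as a block, 13 channel genes were called higher and 1 lower with shAhR-1 in BE2C, and 19 higher and 4 lower with shAhR-2. The numbers do not pair the libraries, since the correlations of deviations between same-numbered libraries lay between -0.014 and 0.024, so the block is no paired analysis. Depth limits genes below about 1 CPM, where a few counts in 1 control library set the fold change.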
